A study of Mus musculus with 50 samples.

Results

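The nuclear-encoded respiratory chain genes were followed through sorted mouse microglia, the resident macrophages of the brain. They were taken as the protein-coding genes whose symbol starts with Nduf, Uqcr or Atp5, or with Cox followed by a digit from 4 to 8, together with Sdha, Sdhb, Sdhc and Sdhd. The rule found 94 genes in the annotation, and 93 of them were among the 48526 genes of the count table. By complex they comprised 7 core subunits, 31 accessory subunits and 8 assembly factors of complex I, 4 subunits of complex II, 8 of complex III, 18 of complex IV and 17 of complex V. The classes follow the gene symbols, so Ndufa4 was counted with complex I although its protein is now usually placed in complex IV.

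The respiratory chain sits in the inner mitochondrial membrane. Complex I takes electrons from NADH and complex II from succinate, complex III passes them on to cytochrome c, complex IV hands them to oxygen, and complex V, the ATP synthase, uses the resulting proton gradient to make ATP. Most subunits are encoded in the nucleus and imported, a small set is encoded in mitochondrial DNA, and some complex IV subunits exist as isoforms from separate genes that differ between tissues. In macrophages the balance between glycolysis and respiration is known to shift with activation and with proliferation.

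The study compared mice whose microglia lack the histone deacetylases Hdac1 and Hdac2 with controls, in a constitutive and in a tamoxifen-inducible model. In every animal both genes were flanked by loxP on both alleles (HDAC1/2-loxP/loxP). Knockouts of the constitutive model carried Cre, and those of the inducible model CreERT2, in either case under Cx3cr1, a gene that is also active in other mononuclear phagocytes. Controls are labelled with the loxP alleles alone, so carrying Cre and losing the deacetylases cannot be told apart.

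The constitutive model was untreated and sampled on the day of birth (P0, 4 controls and 3 knockouts), at 2 weeks (4 and 2) and at 6 weeks (4 and 3). In the inducible model the pregnant dam received 3 mg tamoxifen on embryonic day 13, so that controls were exposed as well. It was sampled on embryonic day 16 (E16, 4 controls and 3 knockouts), at P0 (3 and 4), at 2 weeks (4 and 4) and at 6 weeks (4 and 4). Each of the 50 libraries in these 14 groups is named by an animal number.

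Library totals ran from 11050277 to 29651179 counts, with a median of 18052690. Hdac2 lay at 26.4 to 32.2 CPM (counts scaled to a common library total) in the inducible knockouts at 2 weeks against 71.9 to 82.2 CPM in their controls, and was also lower without overlap at P0 and 6 weeks of that model and at 6 weeks of the constitutive one. It was not lower in every library labelled knockout: animal 1 at E16 had 316 CPM of Hdac2 against 133 to 165 CPM in controls, animal 89 of the constitutive model at 2 weeks had 70.1 CPM against 59.8 to 71.3 CPM, and at P0 of that model the knockouts (124 to 191 CPM) overlapped the controls (126 to 164 CPM). Hdac1 reached 35.7 CPM in the library labelled constitutive knockout 68 at P0 and 92.2 CPM in the one labelled constitutive knockout 380 at 6 weeks, against 11.4 to 13.6 CPM and 13.4 to 16.6 CPM in their controls. The deleted exons are not given in the sources used here, so counts over the whole gene check the deletion only in part. Results that rest on these libraries are given below with and without them, as counts of called members or as medians.

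The cells also differed in what else they held. The 12 microglia markers summed to 18169 and 27030 CPM in the 2 constitutive knockouts at 2 weeks against 60349 to 66359 CPM in controls, while the 13 neutrophil markers summed to 18783 and 53539 CPM against 120 to 879 CPM and the 12 monocyte markers to 2084 and 4993 CPM against 22.9 to 86.4 CPM. At P0 of that model the microglia markers summed to 1429 to 4638 CPM in knockouts against 23432 to 27229 CPM, so the labelled cell type was weakly marked there. Among the 12 microglia markers is Cx3cr1, the gene under which Cre was placed. Its log2 change was negative in every knockout comparison, with -2.71 at P0 and -0.91 at 2 weeks of the inducible model. Whether it follows the Cre allele was not tested. In bulk samples fewer cells of a type and less RNA per cell cannot be told apart.

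The 93 genes spanned a wide range of levels. Per kilobase of exon and averaged over the 50 libraries, Cox6b1 led with 242 CPM per kb, ahead of Cox4i1 with 213, Cox6a1 with 182, Atp5b with 177 and Atp5mpl with 173. The first 3 are structural subunits of complex IV, Atp5b is the catalytic beta subunit of ATP synthase, and Atp5mpl is a small membrane subunit of the same enzyme. This order depends on the deposited lengths, 708 bases for Cox6b1, 1550 for Cox4i1 and 4237 for Atp5b. Their longest coding transcripts have 618, 765 and 1916 bases. At the other end stood tissue-restricted isoforms of complex IV: Cox7b2, Cox8b and Cox8c collected 18, 31 and 5 counts over all libraries, and were too low to be tested in any comparison. Cox4i2 and Ndufa4l2 could be tested at E16 and P0 but not in the comparisons within 2 or 6 weeks.

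Promoter sequence was available for 76 of the 93 genes, from RefSeq windows on GRCm38.p6 that run from 250 bases before to 50 bases after the gene start. Motifs of factors known for binding at respiratory genes were searched on both strands, and matches of different motifs may share bases. A gene was counted where any of its windows held a match, so genes with several windows had more room for one. GCGCATGC (nuclear respiratory factor 1, NRF1) was found for 15.8% of the 76 members against 3.05% of all 27025 genes. CCGGAAG (the ETS family, which includes the GABP subunits) was found for 23.7% against 9.93%, and AAGATGGCG (YY1) for 10.5% against 1.64%. At least 1 of the 3 was found for 40.8% of these members and for 13.6% of all genes. A match is a description of the letters, and its absence says only that those letters are not in this window. The 4 stretches below are shown because their genes carry results described later: Ndufaf4 with an NRF1 match and Ndufb6 with an ETS match, each in capitals (2 overlapping NRF1 matches on opposite strands, and the ETS match on the other strand), and Cox5a and Atp5g3, among the strongest changes of complexes IV and V, with none. Each gives the 250 bases before the start, 5′ to 3′ on the strand of the gene, and overlaps no annotated exon.
Ndufaf4, chr4:24897833-24898082, plus strand: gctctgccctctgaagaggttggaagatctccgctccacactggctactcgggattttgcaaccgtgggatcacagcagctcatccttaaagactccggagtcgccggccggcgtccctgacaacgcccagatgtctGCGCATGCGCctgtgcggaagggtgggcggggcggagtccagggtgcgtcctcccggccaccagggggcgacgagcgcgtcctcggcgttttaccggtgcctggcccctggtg
Ndufb6, chr4:40279422-40279671, minus strand: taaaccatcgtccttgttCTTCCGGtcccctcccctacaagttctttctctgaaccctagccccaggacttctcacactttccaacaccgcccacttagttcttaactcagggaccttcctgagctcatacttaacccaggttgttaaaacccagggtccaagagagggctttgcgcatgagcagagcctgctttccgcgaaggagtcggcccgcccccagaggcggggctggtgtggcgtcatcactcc
Cox5a, chr9:57520982-57521231, plus strand: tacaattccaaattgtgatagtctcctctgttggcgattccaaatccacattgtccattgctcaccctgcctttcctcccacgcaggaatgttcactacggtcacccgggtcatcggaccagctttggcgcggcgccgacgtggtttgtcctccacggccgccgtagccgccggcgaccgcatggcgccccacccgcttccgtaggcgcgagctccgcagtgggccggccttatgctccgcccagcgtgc
Atp5g3, chr2:73911327-73911576, minus strand: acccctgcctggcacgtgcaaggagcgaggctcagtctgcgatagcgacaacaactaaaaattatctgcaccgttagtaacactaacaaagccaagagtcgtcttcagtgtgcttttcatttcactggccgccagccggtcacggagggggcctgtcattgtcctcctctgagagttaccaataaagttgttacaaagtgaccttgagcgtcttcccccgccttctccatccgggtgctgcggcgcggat

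In the controls the genes fell with age between birth and 2 weeks, in both models. The summed level of all members lay at 10004, 10236, 11021 and 10029 CPM in the untreated controls at P0 and at 5188, 4617, 4609 and 4619 CPM at 2 weeks, 0.461 times the P0 mean. In the tamoxifen-exposed controls it went from 8537, 9396 and 9264 CPM at P0 to 4739, 4966, 4899 and 4222 CPM at 2 weeks, 0.519 times. No 2-week library reached a P0 library in either model.

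**Figure D1:**
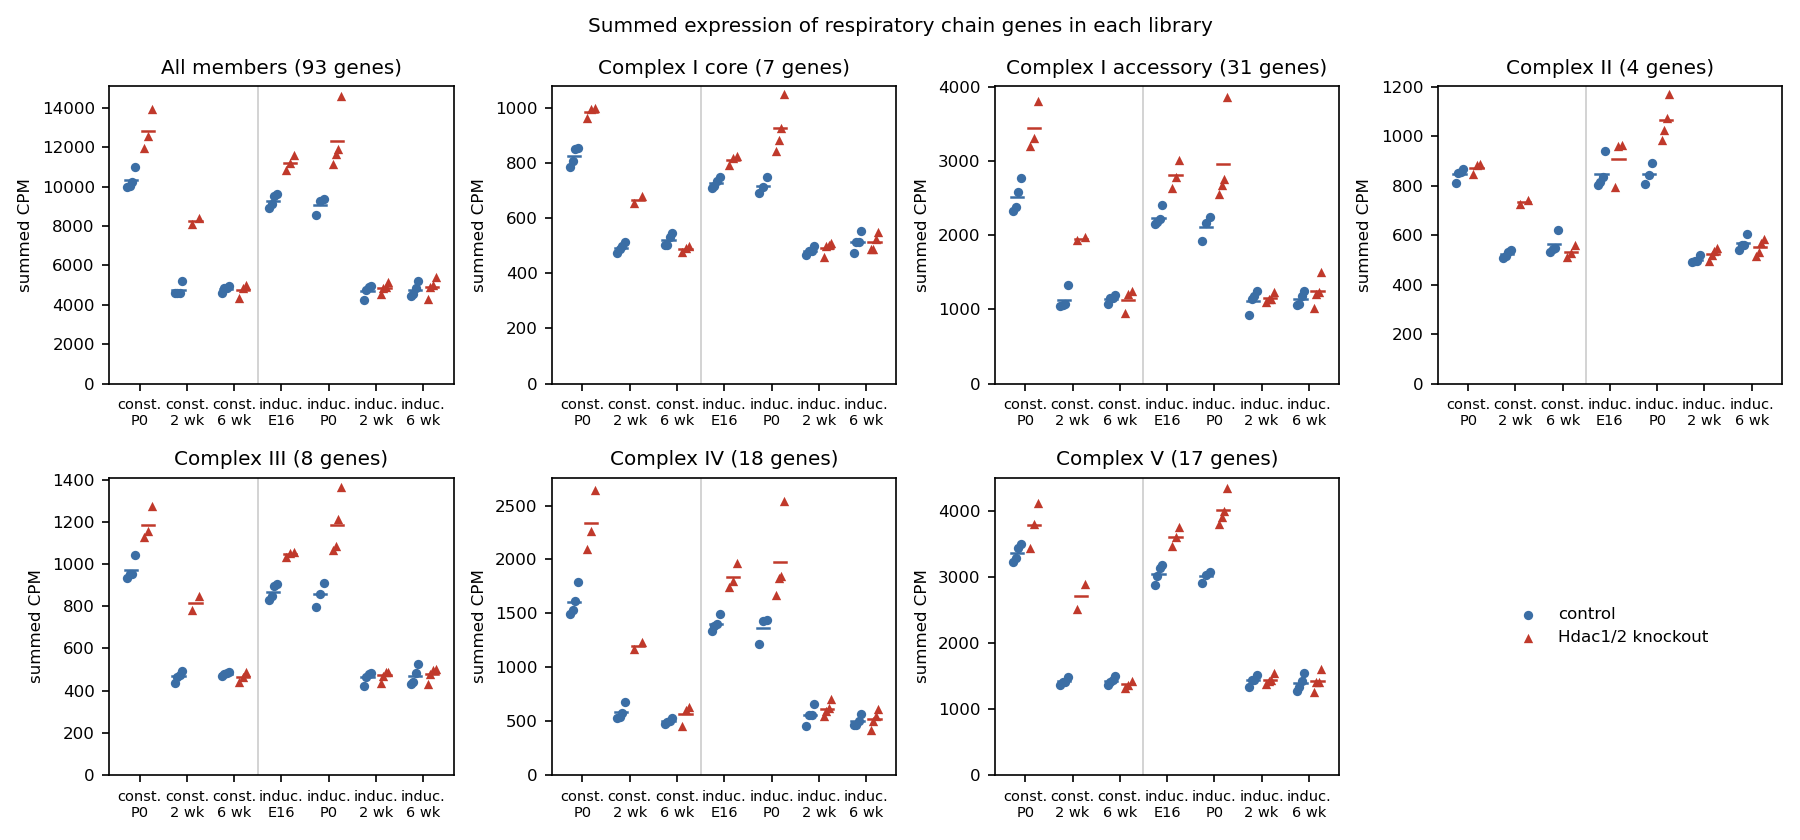
Summed CPM of the respiratory chain genes in each library (vertical axis, from 0), for all 93 genes and for each complex, by model and age; circles are controls, triangles are libraries labelled knockout, and bars are group means. All controls at 2 and 6 weeks lie below all controls at E16 and P0 in the first panel, and the 2 constitutive knockouts at 2 weeks (8091 and 8414 CPM) lie well above their 4 controls.

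Gene by gene, 74 of 87 tested members fell and 3 rose between P0 and 2 weeks in the untreated controls (edgeR quasi-likelihood test, Benjamini-Hochberg adjusted over all genes tested, threshold 0.05). Over all 16346 genes tested 36.6% fell and 26.7% rose. In the tamoxifen-exposed controls 71 of 88 fell and 1 rose, where 32.7% of all 16321 genes fell and 21.9% rose. The members' median log2 change was -0.87 in the untreated and -0.75 in the exposed controls, against -0.07 and -0.06 over all genes tested. These log2 changes are relative to a trimmed-mean scaling of the libraries (TMM), and on library totals alone the median of all genes moved to -0.37 and -0.28. The 2 age comparisons use different animals.

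Complex IV fell most by its median, with 10 of 13 tested genes called lower and a median log2 change of -1.29 in untreated controls, and 11 of 14 with -1.18 in exposed ones. Complexes III and V followed. All 8 complex III genes were called lower in both models (medians -0.90 and -0.80), as were 14 of 17 complex V genes in each (-0.93 and -0.82). In complex I the accessory subunits (28 of 30 and 26 of 30 lower, medians -0.89 and -0.76) moved further than the 7 core subunits (7 and 6 lower, -0.35 and -0.30) and the 8 assembly factors (3 lower and 1 higher in each, -0.35 and -0.27). The differences between complexes were not tested.

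Among single genes Atp5g3, which encodes the c subunit of the rotor ring of ATP synthase, went from 307, 328, 369 and 340 CPM at P0 to 109, 99.1, 91.5 and 93.7 CPM at 2 weeks in untreated controls. Its log2 change was -1.48 (SE 0.09, adjusted p = 1.48e-08, edgeR) there and -1.26 (SE 0.13, adjusted p = 7.36e-06) in exposed controls, with no overlap between the ages. Cox5a, a matrix-side structural subunit of complex IV, went from 67.0, 79.2, 84.8 and 72.0 CPM to 25.1, 21.5, 16.8 and 19.0 CPM, a log2 change of -1.59 (SE 0.13, adjusted p = 1.70e-07). Ndufa5, an accessory subunit of complex I, had the steepest fall of that complex in the untreated controls (-1.69). In complex II the membrane anchors Sdhc (-0.87 and -0.89) and Sdhd (-0.66 and -0.92) fell in both models. Its flavoprotein Sdha (-0.23 and -0.49) also fell in both, and the iron-sulfur subunit Sdhb fell in untreated controls (-0.32), while its -0.20 in exposed controls did not pass.

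A few members went the other way. Ndufaf7, an assembly methyltransferase of complex I, rose in both models (log2 change 0.54 and 0.93). It lay at 40.4, 37.1 and 39.6 CPM at P0 and at 59.3, 72.3, 66.6 and 58.6 CPM at 2 weeks in the exposed controls, without overlap. Atp5s (0.75) and Ndufab1 (0.36), the mitochondrial acyl carrier protein, rose in untreated controls. On library totals Ndufab1 did not shift clearly: 30.1, 28.3, 32.9 and 27.6 CPM at P0 overlapped 37.6, 29.5, 30.7 and 27.0 CPM at 2 weeks.

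The makeup of the sort changed over the same interval. Monocyte markers summed to a mean of 1045 CPM at P0 and 47.5 CPM at 2 weeks in untreated controls, and to 3751 and 41.1 CPM in exposed ones. Neutrophil markers went from 1248.5 to 420.1 CPM, with overlap, and from 2735 to 176 CPM without. Neuron markers summed to 438 to 1890 CPM over all controls at P0 and to 3.02 to 8.55 CPM at 2 weeks, and the 12 microglia markers rose from 23432 to 27229 CPM to 59559 to 66359 CPM. Of 10 astrocyte and 10 vascular markers 9 of each fell in untreated controls, as did 6 of 6 tested erythroid markers. Their part in the fall of the respiratory genes was not tested.

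Outside that interval the controls moved little. Between E16 and P0 no member passed in the exposed controls (0.058% of all 17251 genes did), and 1 of 90 had an unadjusted p under 0.05; DESeq2 called none either. From 2 to 6 weeks 1 member rose and 2 fell in untreated controls (8.8% and 8.93% of all genes), and none rose and 2 fell in exposed controls (8.13% and 8.98%). The same pair fell in both models. Cox7a2l, a protein that helps tether complexes III and IV, lay at 41.1, 40.1, 40.7 and 37.0 CPM at 2 weeks and at 24.8, 26.8, 22.3 and 30.4 CPM at 6 weeks in untreated controls, a log2 change of -0.65 (SE 0.12, adjusted p = 0.00163), and the exposed controls gave -0.63 (adjusted p = 0.00134). Cox4i1, the ubiquitous isoform of subunit 4, fell by 0.48 and 0.46 on the log2 scale. The groups did not overlap for either gene in either model. Cox6a2, the muscle-type isoform of subunit 6a, was the gene called higher in untreated controls (1.59), with overlapping groups at 0.244 to 0.864 and 0.856 to 2.02 CPM.

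Exposed and untreated controls of 1 age could be compared too, with tamoxifen and model differing together so that they cannot be told apart. At P0 1 of 90 members was lower, the accessory subunit Ndufs4 (-0.45, adjusted p = 0.0483), and none was higher, where 1.59% of all genes were lower and 2.59% higher. It was not called on library totals alone, without a filter, in the fit of all groups or with the length trend taken out, nor without untreated control 70, 71 or 74 or exposed control 54 or 55. At 2 weeks and at 6 weeks edgeR and DESeq2 called no member, 1.78% and 0.22% of all genes passed in edgeR, and 2 members had an unadjusted p under 0.05 at each age.

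Among the 7 knockout comparisons most members were called in the constitutive model at 2 weeks. The summed level of all members was 8091 and 8414 CPM in the 2 knockouts against 5188, 4617, 4609 and 4619 CPM in the 4 controls, 1.73 times the control mean. Of 88 members tested 65 were higher and none lower in edgeR, where 24.4% of all 15017 genes were higher and 17.8% lower. The members' median log2 change was 0.87 against 0.00 over all genes tested. DESeq2 also called 65 higher and none lower, and 1 member had a negative change at an unadjusted p under 0.05.

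**Figure D2:**
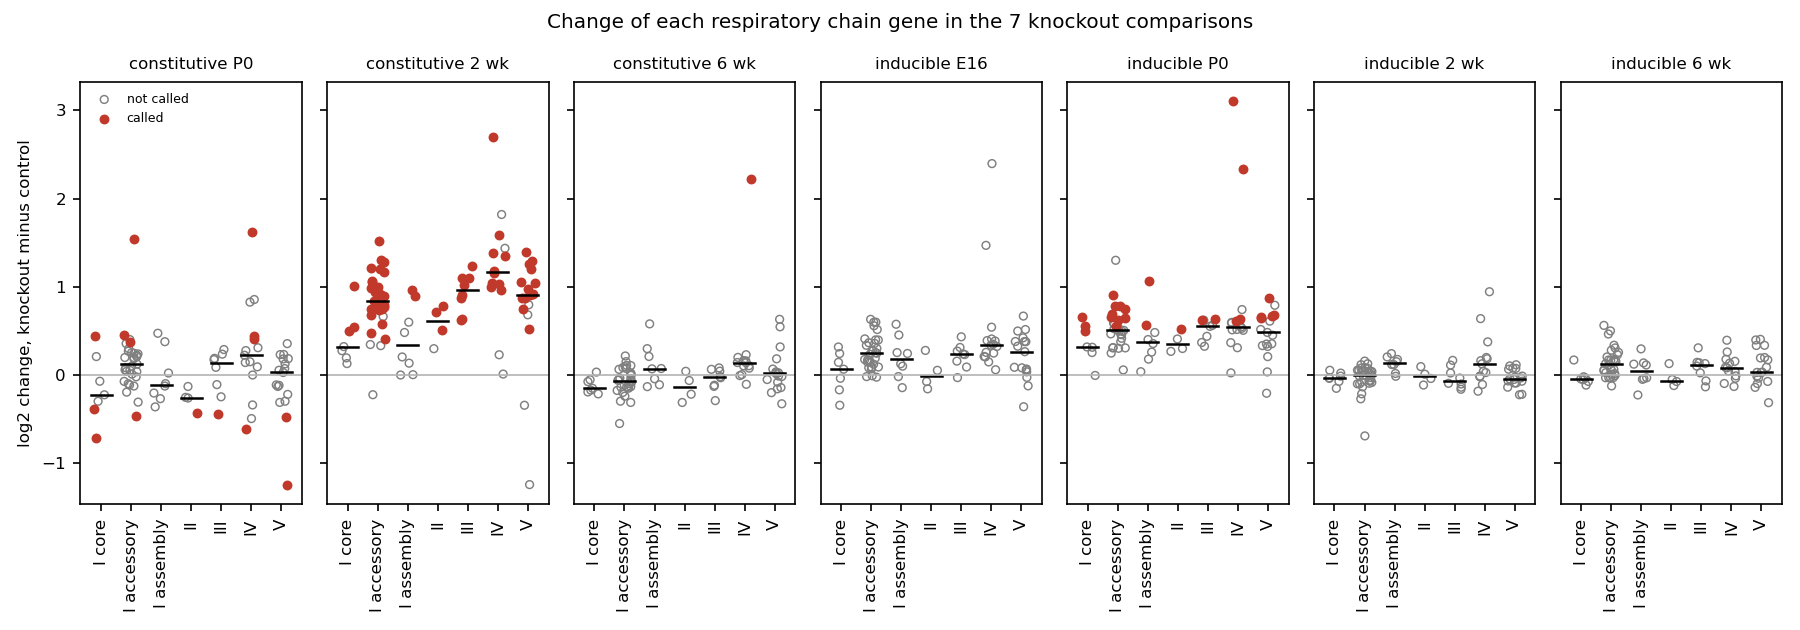
Log2 change of each tested respiratory chain gene, knockout minus control (vertical axis), by complex (horizontal axis) in the 7 comparisons; filled points were called at an adjusted p of 0.05, open points were not, and bars are medians. The constitutive model at 2 weeks and the inducible model at P0 hold 65 and 26 called genes, all above 0, and the inducible model at 2 and 6 weeks holds none.

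The order of the complexes resembled that of the fall with age. Complex IV had a median log2 change of 1.17 with 10 of 14 tested genes higher, and its summed CPM was 2.06 times that of controls. All 8 complex III genes were higher (median 0.96), as were 13 of 17 in complex V (0.90, summed CPM 1.91 times). Of the complex I accessory subunits 26 of 30 were higher (0.83), against 3 of 7 core subunits (0.32) and 2 of 8 assembly factors (0.34). Complex II had 3 of 4 higher (0.61).

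Cox5a, whose promoter stretch is printed above, had the largest change of a broadly expressed member. It lay at 63.0 and 60.9 CPM in the knockouts against 25.1, 21.5, 16.8 and 19.0 CPM in controls, a log2 change of 1.59 (SE 0.17, adjusted p = 8.76e-05, edgeR). Both knockouts lay just below the P0 controls of their model and above all 2-week controls. Other complex IV subunits went with it: Cox7a2 (1.38), Cox7b (1.35), Cox8a (1.18), Cox6a1 (1.04), Cox6b1 (1.02) and Cox4i1 (0.96). Cox7c, another small subunit of complex IV, had 0.01 and was not called, with 12.9 and 11.5 CPM against 12.8, 11.4, 13.7 and 10.3 CPM.

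In complex V Atp5g3 was at 237 and 234 CPM in the knockouts against 109, 99.1, 91.5 and 93.7 CPM, a log2 change of 1.26 (SE 0.12, adjusted p = 3.92e-05). Both knockouts stood clear of the controls. The c subunit is encoded by 3 genes with the same mature protein, and the other 2 were not called: Atp5g1 was at 7.6 and 6.5 CPM against 4.17 to 4.49 CPM (log2 change 0.68, adjusted p = 0.0578), and Atp5g2 at 1.2 and 0.663 CPM against 1.51 to 2.65 CPM (log2 change -1.25, adjusted p = 0.0543). Atp5k (1.39) and Atp5mpl (1.29), small membrane subunits, were higher. Atp5b was at 763 and 985 CPM against 462, 467, 468 and 491 CPM.

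In complex I the accessory subunit Ndufa1, which sits in the membrane arm, was at 49.97 and 58.5 CPM against 24.4, 17.8, 16.3 and 17.5 CPM, a log2 change of 1.52 (SE 0.19, adjusted p = 0.000245). Ndufb7 (1.30) and Ndufb6 (1.28) followed, and Ndufa4 had 1.16. Of the core subunits the iron-sulfur protein Ndufv2 changed most, at 114 and 101 CPM against 57.5, 48.5, 55.5 and 51.2 CPM (log2 change 1.01, SE 0.12, adjusted p = 0.000162). Ndufs7, an iron-sulfur core subunit, had 0.50. The called assembly factors were Ndufaf8 (0.96) and Ndufaf5 (0.89).

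In complex II, which also works in the tricarboxylic acid cycle, all subunits but Sdha were called higher. Differences between the subunits were not tested. Sdhd was at 166 and 161 CPM against 103, 87.5, 104 and 84.9 CPM (log2 change 0.78, SE 0.13, adjusted p = 0.00121), Sdhc had 0.71 and Sdhb 0.51. Sdha was at 289 and 286 CPM against 221, 225, 250 and 240 CPM, without overlap, but its change of 0.29 did not pass (adjusted p = 0.0679). In complex III the small accessory subunits Uqcr10 (1.23), Uqcr11 (1.10) and Uqcrb (1.10) led.

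Without the library labelled knockout 89 the members' median log2 change was 0.74, against -0.01 over all genes tested. In that library Hdac2 was not lower and the neutrophil sum was the higher of the 2. Without knockout 80 the members' median was 0.96. Calls in either fit assume that the lone knockout varies like the controls. All 13 neutrophil and 11 of 12 monocyte markers were higher and 10 of 12 microglia markers lower in this comparison. The summed lymphocyte (28.9 and 61.7 against 83.9 to 97.4 CPM), astrocyte (26.8 and 36.0 against 214 to 254 CPM) and vascular markers (19.4 and 23.2 against 59.8 to 67.4 CPM) lay below the controls. Their part in the result was not tested.

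The inducible model at P0 showed a smaller difference in the same direction. The members summed to 11164, 11674, 14598 and 11906 CPM in the 4 knockouts against 8537, 9396 and 9264 CPM in the 3 controls, 1.36 times the control mean and without overlap. Of 90 members tested 26 were higher and none lower in edgeR, where 6.81% of all 17573 genes were higher and 3.56% lower. DESeq2 called 34 higher and none lower, and no member with a negative change had an unadjusted p under 0.05. The median was 0.51 against -0.01 over all genes, and 88 of the 90 changes were positive.

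Called genes came from every complex, with 9 of 31 accessory subunits, 3 of 7 core subunits and 2 of 8 assembly factors of complex I, 1 of 4 in complex II, 2 of 8 in complex III, 4 of 15 in complex IV and 5 of 17 in complex V. Ndufaf2, an assembly factor of complex I, had 1.06. Ndufb6 was at 42.6, 46.3, 71.2 and 48.6 CPM against 25.1, 31 and 28.7 CPM (0.91, SE 0.20, adjusted p = 0.0172). Over 20% of the exon bases of Ndufaf2 and Ndufb6 in the annotation used here overlap another gene, so reads there may be shared. For Ndufaf2 the deposited length is 679 bases where that annotation has 2978. How much of its overlap was in the counted gene is thus not known. Atp5mpl (0.86), Ndufv3 (0.78), Ndufa12 (0.78), Atp5g3 (0.68), Atp5j (0.67) and Ndufv2 (0.66) followed. Ndufaf4 was at 56.6, 53.8, 66.7 and 45.7 CPM against 36.3, 35.1 and 42.5 CPM (0.57, adjusted p = 0.0498). Uqcrfs1, the Rieske iron-sulfur protein of complex III, had 0.62, Cox5a 0.60 and the flavin-binding core subunit Ndufv1 0.55. Sdhc (0.52) was the complex II gene called.

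These counts depended on single libraries, with medians between 0.33 and 0.58. Without control 54, 55 or 56 the number called higher was 3, 1 or 3, with medians of 0.45, 0.51 and 0.50. Without knockout 49 it was 10 and without knockout 53 it was 15, with medians of 0.55 and 0.33. The shares of all genes called in these fits, and in that with DESeq2, are not given here. Whether calls dropped for the members alone thus cannot be told. Microglia markers summed to 12497 to 16618 CPM in these knockouts against 23773 to 26417 CPM, with 6 of 12 lower. The sums of the neutrophil markers overlapped (1388 to 6112 and 1111 to 3886 CPM). Monocyte sums overlapped as well (3367 to 7249 and 1149 to 5184 CPM), and so did lymphocyte sums (55.4 to 143 and 130 to 228 CPM). Neuron, astrocyte, erythroid and vascular sums also overlapped. The oligodendrocyte lineage sums were lower in knockouts without overlap (97.45 to 118.2 and 137.7 to 218.5 CPM). Control 56 had 1149 CPM of monocyte markers, where controls 54 and 55 had 4919.5 and 5184 CPM. The part of these markers in the result was not tested.

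At P0 of the constitutive model the picture depended on the scaling of the libraries. The members summed to 13965, 12582 and 11991 CPM in knockouts against 10004, 10236, 11021 and 10029 CPM, 1.24 times the control mean. Relative to the TMM scaling 7 of 90 were higher and 8 lower, where 21.4% of all 18411 genes were higher and 20.2% lower, and the median was 0.06 against 0.04 over all genes. On library totals alone 48 were higher and 1 lower, where 34.9% of all genes were higher and 11.1% lower, and the median was 0.42 against 0.40 over all genes. Directions for single genes hold relative to that scaling.

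The calls there were mixed within complexes. Ndufv1 was higher at 174, 185 and 184 CPM against 98, 114, 98 and 106 CPM (0.44, adjusted p = 0.00586), with the knockouts clear of the controls. Its partner in the complex I core Ndufs8 was lower at 98.6, 99.0 and 109 CPM against 121, 115, 148 and 143 CPM (-0.73, adjusted p = 0.00192), also without overlap. Ndufa4 (0.45), Cox6a1 (0.44), Cox6c (0.40), Ndufb9 (0.37) and Ndufa4l2 (1.54) were higher. Sdha (-0.44), Uqcrc1 (-0.45), Ndufa9 (-0.47), Atp5a1 (-0.49), Ndufs3 (-0.40), Cox7c (-0.62) and Atp5g2 (-1.25) were called lower although their CPM overlapped between the groups. Without the library labelled knockout 68 the counts were 2 higher and 4 lower. The total called was 8 without knockout 73 and 9 without control 69 or control 74. All 12 microglia markers were lower and all 13 neutrophil, 12 neuron and 7 erythroid markers higher in this comparison. The summed astrocyte (1721 to 2029 against 510 to 995 CPM) and monocyte markers (2215 to 3405 against 970 to 1162 CPM) also lay above the controls. The vascular and oligodendrocyte lineage sums did so too, without overlap, while the lymphocyte sums overlapped. The part of these markers was not tested.

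At E16, 3 days after tamoxifen, no member was called in edgeR, and 0% of all 17594 genes were. The members summed to 11618, 10871 and 11190 CPM in knockouts against 9519, 9636, 9104 and 8931 CPM, without overlap and 1.21 times the control mean. Of 90 members 28 had an unadjusted p under 0.05, all 28 with positive changes, where 13.1% of all genes did. DESeq2 called 10 higher and none lower, and 2.59% and 2.42% of all genes. The members' median log2 change was 0.24 against 0.12 over all genes, and 0.36 against 0.24 on library totals alone. The smallest p belonged to Ndufb6, at 49, 42.3 and 43.3 CPM against 26.8, 29.5, 26 and 25 CPM (0.63, adjusted p = 0.127). Without the library labelled knockout 1, whose Hdac2 was above the controls and whose erythroid markers summed to 13344 CPM against 1157 to 1542 CPM in controls, edgeR called 4 higher. That library also had 3388 CPM of neuron markers (383 to 1172 in controls) and 777 CPM of astrocyte markers (115 to 273). Its oligodendrocyte lineage and vascular sums were above the controls too. Its microglia sum (7331 against 18771 to 29123 CPM) and its neutrophil and lymphocyte sums were below them. Its monocyte sum lay within their range. The part of these markers was not tested.

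By 6 weeks the constitutive difference was gone from nearly all members. The summed level was 4333, 4869 and 4985 CPM against 4832, 4828, 4947 and 4591 CPM, with overlap. Of 87 tested 1 was higher and none lower, where 6.76% of all genes were higher and 5.24% lower, and the count was the same without the library labelled knockout 380. DESeq2 called 2. The neutrophil markers still summed to 2313 to 5159 CPM against 422 to 721 CPM. The microglia markers summed to 38107 to 51946 CPM against 61526 to 63962 CPM. Lymphocyte, astrocyte and vascular sums also lay below the controls without overlap. Monocyte, neuron, oligodendrocyte lineage and erythroid sums overlapped. In the inducible model at 2 and 6 weeks no member was called in edgeR, where 2.25% and 0.0633% of all genes were, and the summed levels overlapped. DESeq2 called 1 at 2 weeks and none at 6 weeks, and 2 members had an unadjusted p under 0.05 at each age. The smallest p at 2 weeks was that of Cox7c (0.64, adjusted p = 0.0724), at 16.0, 13.6, 19.4 and 11.0 CPM against 8.73, 10.6, 8.03 and 9.40 CPM, without overlap. At 6 weeks it was that of Ndufb2 (0.46, adjusted p = 0.999).

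The differences between these effects were tested as interactions. In the constitutive model the knockout effect at 2 weeks was above that at P0 for 59 of 90 members and below it for none, where 21.7% and 9.07% of all genes were. From 2 to 6 weeks it dropped for 57 of 88 and rose for 1, Atp5g2, where 9.92% and 5.88% of all genes did. Cox5a gave 1.39 (adjusted p = 8.07e-05) for the first and -1.46 (adjusted p = 0.000894) for the second. The 2 counts of called members were 33 and 32 without the library labelled knockout 89, and without knockout 73 the first was 29. The first was 63 without the library labelled knockout 68, 33 with median-ratio scaling and 25 on library totals alone. The second was 55 without the library labelled knockout 380. At 2 weeks the constitutive effect exceeded the inducible one for 61 of 88 members and lay below it for none, where 16.6% and 14.7% of all genes did, and for 48 without the library labelled knockout 89. Atp5g3 (1.29), Ndufv2 (1.16), Atp5f1 (1.09) and Ndufb8 (1.07) were among the 5 smallest adjusted p values.

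At P0 the order of the models was the opposite. The constitutive effect was below the inducible one for 23 of 90 members and above it for none, where 16.9% and 14% of all genes were. Ndufa9 (-0.99), Uqcrc1 (-0.77), Sdha (-0.70), Ndufa10 (-0.70) and Uqcrc2 (-0.65), a core protein of complex III, had the smallest adjusted p values. This count was 2 on library totals alone, which moved the median difference of all genes from -0.04 to 0.30. Leaving out any 1 of 10 libraries took it to 15 or fewer: 6 without control 69 or 71, 7 without knockout 73, 10 without control 74 or knockout 76, 11 without the library labelled knockout 68 and 12 without control 70 of the constitutive model, and 15, 15 and 14 without controls 54, 55 and 56 of the inducible one. In the inducible model the effect dropped from P0 to 2 weeks for 3 of 90, Cox6b2, Uqcrc2 and Ndufa10, and rose for none, where 1.71% and 2.67% of all genes did; DESeq2 called 15 lower. The count there was 1 without knockout 10 at 2 weeks or without control 54 or 55, and 7 without control 4 at 2 weeks or knockout 48. From 2 to 6 weeks edgeR called no member and 0% of all genes, DESeq2 called no member either, and 1 member had an unadjusted p under 0.05. At 6 weeks 1 of 87 differed between the models, Cox6b2, with a larger constitutive effect (1.85, adjusted p = 0.0493), where 2.54% of all genes were higher and 2.41% lower. It was not called in the fit without a filter or in the fit of all groups, nor without the library labelled knockout 380 or when any other single library was left out, except inducible controls 1 and 10.

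Cox6b2, the testis-type isoform of complex IV subunit 6b (chromosome 7, 4751792 to 4753094, minus strand, GRCm38), had the most persistent change. It was the single member called in the constitutive model at 6 weeks and had the largest change at 2 weeks and in the inducible model at P0. At P0 of the constitutive model it lay at 11.0, 10.6 and 7.79 CPM in knockouts against 2.08, 2.46, 3.76 and 1.53 CPM in controls (log2 change 1.62, adjusted p = 0.00341). At 2 weeks it lay at 7.78 and 6.90 CPM against 1.17, 1.73, 0.502 and 1.06 CPM (2.70, adjusted p = 0.000729), and at 6 weeks at 3.94, 4.35 and 3.45 CPM against 0.938, 0.795, 0.739 and 0.759 CPM (2.23, adjusted p = 0.00121). The groups did not overlap at any of these ages. In the inducible model at P0 it lay at 9.11, 15.4, 17.6 and 10.5 CPM against 1.49, 1.83 and 1.28 CPM (3.11, SE 0.35, adjusted p = 0.000502). At E16 the knockouts (6.61, 12.8 and 10.8 CPM) were above the controls (5.44, 3.42, 2.71 and 2.05 CPM) but the gene was not called. In the later inducible groups the values overlapped.

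**Figure D3:**
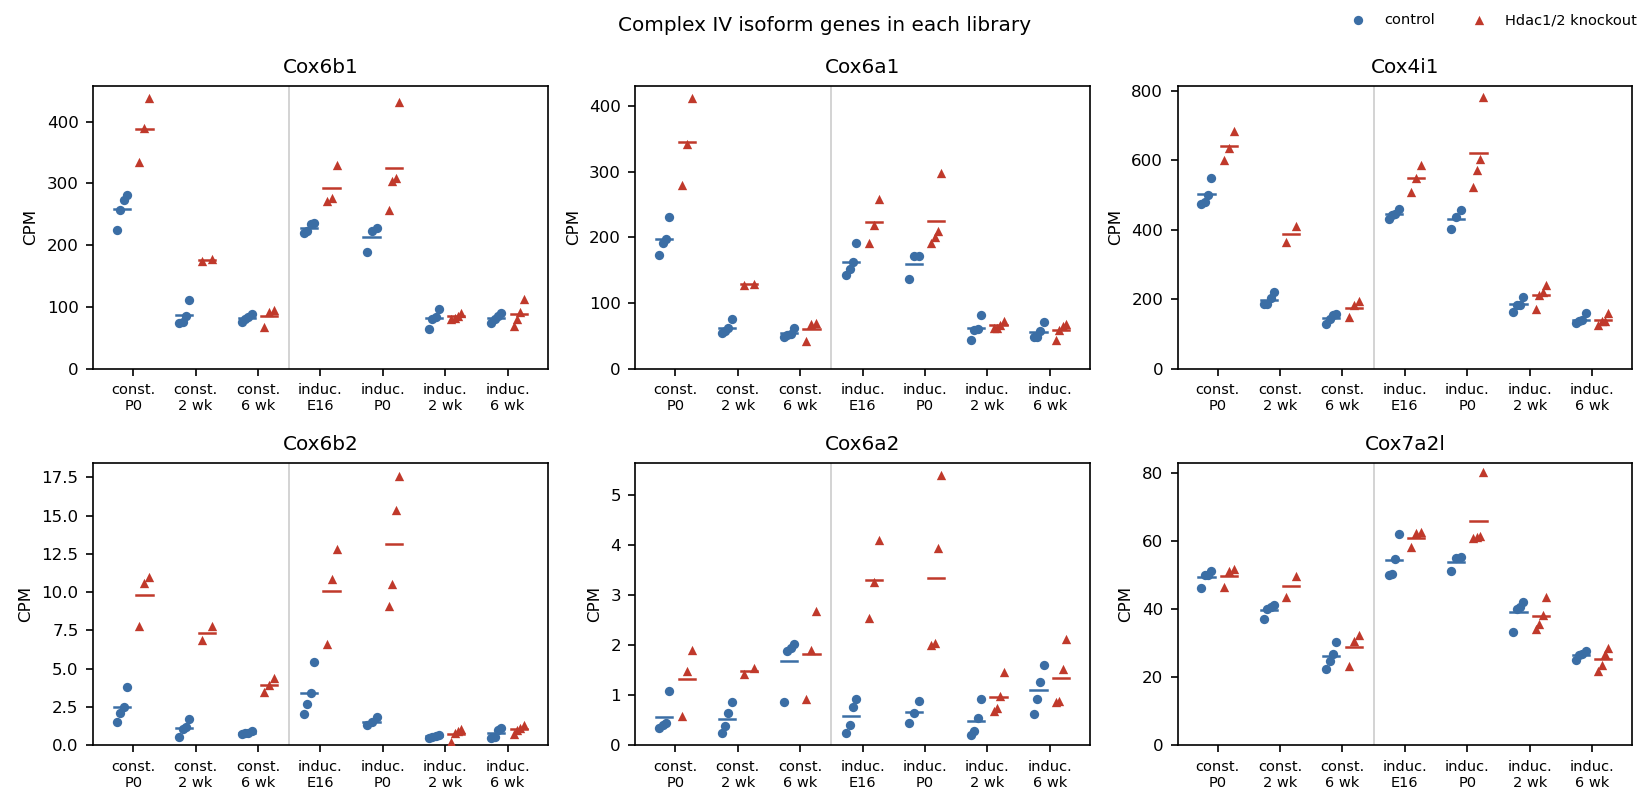
CPM (vertical axes, from 0) of 6 complex IV isoform genes in each library by model and age; circles are controls, triangles are libraries labelled knockout, and bars are group means. Cox6b1, Cox6a1 and Cox4i1 fall with age in controls, while Cox6b2 stays at 3.45 to 4.35 CPM in the constitutive knockouts at 6 weeks, above all 4 controls there.

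Cox6b2 remained a minor form. Per length it made up 0.591% ± 0.179 (SD, n = 4) of Cox6b1 and Cox6b2 together in untreated controls at P0 and 1.58% ± 0.119 (n = 3) in knockouts, 0.819% ± 0.370 (n = 4) and 2.60% ± 0.250 (n = 2) at 2 weeks, and 0.624% ± 0.0611 (n = 4) and 2.93% ± 0.660 (n = 3) at 6 weeks. In the inducible model it made up 0.459% ± 0.0801 (n = 3) and 2.5% ± 0.421 (n = 4) at P0 and 0.452% ± 0.136 (n = 4) and 0.561% ± 0.269 (n = 4) at 2 weeks. The share thus stayed high at 6 weeks in the constitutive model after the level of both genes had dropped. The size of these shares depends on the deposited lengths, 1108 bases for Cox6b2 and 708 for Cox6b1. Their longest coding transcripts have 585 and 618 bases.

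The muscle-type isoform Cox6a2 was called in 1 knockout comparison, the inducible model at P0, at 3.95, 2.00, 5.39 and 2.04 CPM against 0.880, 0.641 and 0.447 CPM (2.34, adjusted p = 0.0178). The groups did not overlap. Ndufa4l2, a paralog of Ndufa4 induced by hypoxia, lay at 2.29, 2.52 and 2.07 CPM against 0.486, 0.315, 0.538 and 1.13 CPM at P0 of the constitutive model (1.54, adjusted p = 0.0330). At 2 and 6 weeks it was at 0 in every library but the knockout 80, where it had 0.0572 CPM.

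Of the 13 respiratory genes of the mitochondrial genome 8 could be tested in the constitutive knockout at 2 weeks, and their difference from the nuclear genes was not tested. None of the 8 was called in edgeR, and none had an unadjusted p under 0.05 (median log2 change -0.09). All 13 genes together summed to 5504 and 2498 CPM in the 2 knockouts against 4371, 3729, 4531 and 3594 CPM, so that knockout 80 lay above and the library labelled knockout 89 below all controls. Without the latter the median log2 change of the 8 was 0.31. The ratio of all 13 to the nuclear members was 0.680 and 0.297 in the knockouts and 0.778 to 0.983 in controls. From P0 to 2 weeks the 2 sets went the same way. All 8 mitochondrial genes tested fell in untreated controls (-1.09), where 36.6% of all genes did. In exposed controls 7 of 8 fell (-0.55), where 32.7% of all genes did. From 2 to 6 weeks the 2 sets did not go the same way. In the untreated controls 7 of 8 mitochondrial genes fell again, where 8.93% of all genes fell. The 13 mitochondrial genes summed to 0.70 times the 2-week mean in both models, with overlap in the exposed controls. The nuclear members stayed at 1.01 times in both. That difference between the sets was not tested. At P0 of the constitutive model the ratio was 1.29 to 1.67 in knockouts and 0.909 to 1.30 in controls. There 3 of 8 mitochondrial genes were called higher, where 21.4% of all genes were.

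**Figure D4:**
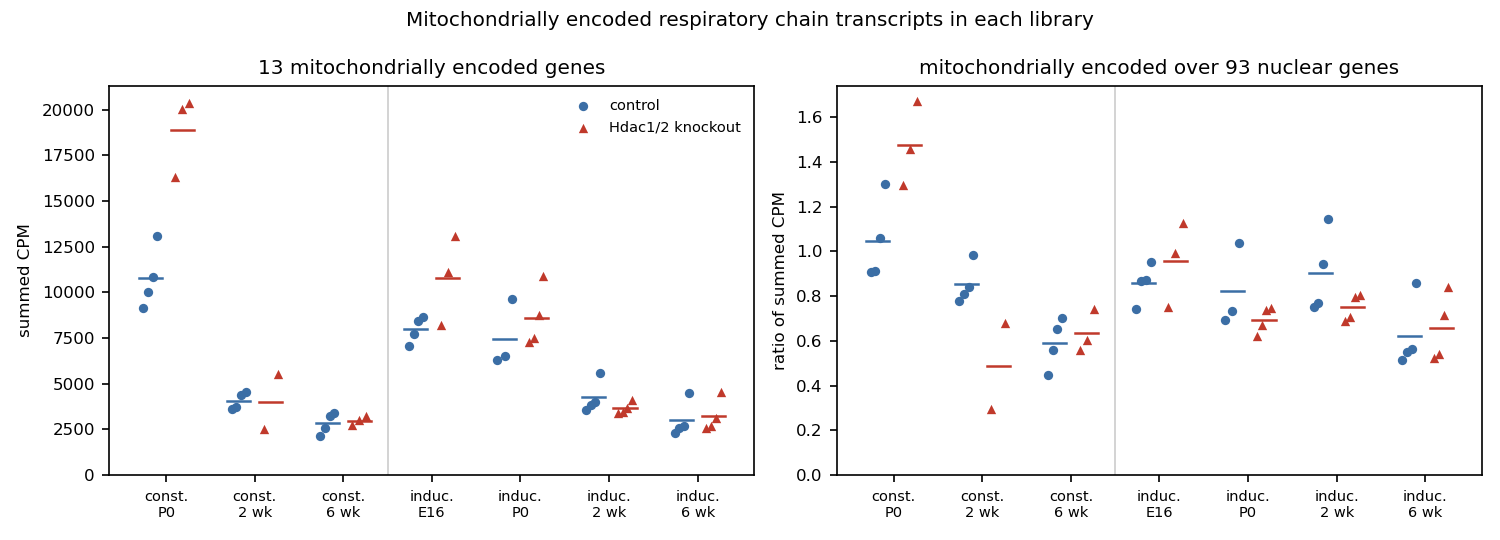
Summed CPM of the 13 mitochondrially encoded respiratory genes (left) and its ratio to the summed CPM of the 93 nuclear members (right) in each library by model and age; circles are controls, triangles are libraries labelled knockout, and bars are group means. The ratios of the 2 constitutive knockouts at 2 weeks, 0.680 and 0.297, lie below those of all 4 controls of that age.

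The fall with age and the rise in the knockout could be set side by side without shared animals, by taking the age change from the inducible-model controls and the knockout change from the constitutive model at 2 weeks. Across 88 members the 2 log2 changes had a Pearson r of -0.757 and a Spearman rho of -0.828, as a description over genes, which share libraries and are not independent. Over 14319 other genes the values were -0.722 and -0.690, so the relation was not limited to the respiratory genes. Of the 71 members that fell with age 62 were higher in the knockout, which is 87.3% of those 71 and 95.4% of the 65 that were higher. Among the other genes the corresponding shares were 66.4% and 71.2%. Without the library labelled knockout 89 the members' r was -0.776 and 57 of the 71 were higher (80.3%), which are all 57 called, against 55.2% and 77.6% among other genes.

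The 2 knockout comparisons with most calls, also without shared animals, overlapped in 20 members. That is 76.9% of the 26 called higher in the inducible model at P0 and 30.8% of the 65 in the constitutive model at 2 weeks. Among other genes the shares were 57.4% and 18%, and the correlation of the changes was 0.575 over members and 0.319 over other genes. The overlap was 19 members without the library labelled knockout 89, 73.1% of the 26 and 33.3% of 57.

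**Figure D5:**
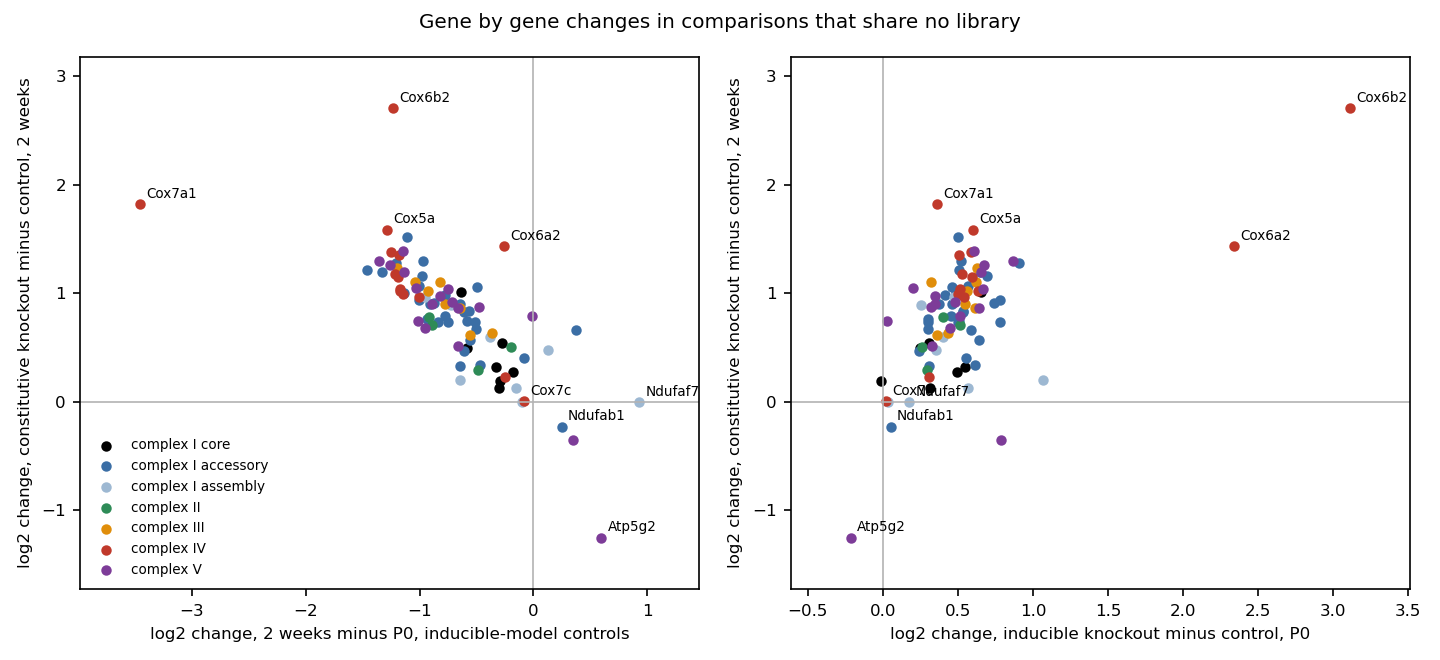
Log2 changes of the respiratory chain genes, 1 point a gene and 1 colour a complex. The constitutive knockout effect at 2 weeks (vertical axes) is set against the age change from P0 to 2 weeks in inducible-model controls (left, r of -0.757) and against the inducible knockout effect at P0 (right, r of 0.575), with a few genes at the edges named.

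Other metabolic genes were read from lists. In the constitutive knockout at 2 weeks, where 24.4% of all genes were higher and 17.8% lower with a median log2 change of 0.00, 9 of 16 tricarboxylic acid cycle genes were higher (median 0.49), led by Mdh2 (1.11), Fh1 (0.85), Idh3a (0.82) and Cs (0.73). Glycolysis had 12 of 18 higher and 1 lower (1.26), with Ldha at 1.59, Aldoa at 1.39 and Tpi1 at 1.19. Of 36 assembly factors outside the naming rule 9 were higher (0.32), a share near the 24.4% of all genes. Of 22 partner genes, such as electron carriers and the ADP and anion channels, 9 were higher and 1 lower (0.34), with Etfa at 1.06. Of 16 regulators of mitochondrial genes Myc (1.44) was higher, and Pprc1 (-0.73) and Twnk (-0.65) were lower. Without the library labelled knockout 89 the numbers higher were 6 of 16 for the tricarboxylic acid cycle and 9 of 18 for glycolysis, with 3 of the latter lower, where 18.9% of all genes were higher and 14.9% lower.

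At P0 of the inducible model, where 6.81% of all genes were higher and 3.56% lower, 10 of 16 tricarboxylic acid cycle genes were higher (median 0.58), among them Fh1 (1.00), Suclg1 (0.91), Idh3a (0.89) and Cs (0.73). Of 18 glycolysis genes 2 were called, both lower, Hk2 (-0.55) and Hk3 (-0.77). Of the assembly factors 5 of 36 were higher, with Bcs1l, a factor that inserts the Rieske protein into complex III, at 1.01, and 4 of 22 partners were higher. With age from P0 to 2 weeks 10 of 16 tricarboxylic acid cycle genes and 12 of 18 glycolysis genes fell in untreated controls, where 36.6% of all genes did, and 9 and 14 in exposed controls, where 32.7% did.

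Many members are short, and some have near copies elsewhere in the genome. Among the 27 tested members under 1 kb of exon the median change in the constitutive knockout at 2 weeks was 1.02, against -0.16 in the 1254 other genes of that length, so the other short genes had no such median. Within the members the change correlated with log2 length at r = -0.367 (88 genes) and over other genes at r = -0.009. Of the 93 members 47 have at least 1 stretch of 50 bases of their transcript that also occurs in another gene's transcript. The 16 tested members with over 20% of such stretches had a median of 0.87, with 12 higher, and the other 72 had 0.88, with 53 higher. Atp5l, with 84.9% repeated, was counted at 2.63 CPM per kb, a level that such repeats make uncertain.

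Members with a motif match in the promoter did not separate clearly from those without in the constitutive knockout at 2 weeks. The median log2 change was 0.84 with and 0.87 without an NRF1 match, 0.99 and 0.81 for ETS, and 0.90 and 0.87 for YY1. These differences were not tested.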

How the data were processed

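The RNA was 1 ng of total RNA from sorted microglia, amplified with the SMARTer v4 kit and made into Nextera XT libraries, per the labels' protocols, with no molecular identifiers named. The authors deposited 1 table of read counts per gene, which holds whole numbers and gene lengths. The submitters' processing notes name CASAVA 1.8.2, STAR 2.5.2b, Subread featureCounts 1.5.1, limma 3.28.21 and GRCm38. The annotation release and the strand setting are not given in the sources used here, so genes that overlap are uncertain (32 members share exon bases with another gene).

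Symbols, coordinates and members were taken from GENCODE vM21 on GRCm38. Of 48526 genes 382 had no match and hold 0.0224% of counts. CPM are counts scaled to a common library total. Each comparison was fitted on its own groups across all genes with edgeR 4.0.16 in R 4.3.3 (filterByExpr, TMM, robust quasi-likelihood test, Benjamini-Hochberg adjustment, threshold 0.05), and interactions on the groups they join. SEs were computed from the F statistic. Changes in CPM and log2 changes can differ because only the latter use TMM. The code was tested on simulated data. Alternatives were DESeq2 1.42.0, median-ratio scaling, library totals alone, no filter, all 14 groups in 1 fit, leaving out each library, and, chosen after seeing the data, a gene length trend taken out by an offset.

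Animals are the replicates, by number. The members and lists were chosen with earlier results of these data known. Named with values are complex II, the isoform genes, per comparison up to 3 called members per complex with the largest log2 change and at least 5 CPM, the 5 smallest adjusted p in interactions, and the smallest p where none passed. Further genes, among them Ndufab1, Cox7c, Atp5b, Atp5g1, Ndufaf4 and Cox7a2l, were chosen after their values were seen.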

Additional observations from a re-analysis of the deposited data

Results flagged for a closer look

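A lone library far from the others of its group (Dixon's 95% limit) was found in 6 of 81 summed values and 8 of 147 gene values, where chance gives about 1 in 20. Groups of 2 or 3 libraries were not tested in this way. These are the constitutive knockouts at every age, the inducible knockouts at E16 and the exposed controls at P0. The libraries labelled knockout 68, 89 and 380, and knockout 1 at E16, were thus not covered. Among the inducible knockouts at P0 animal 53 stood above the others for Atp5g3 (558.0 CPM against 384.0 to 413.3), Cox6a1 (297.5 against 191.6 to 209.3), Cox7a2l (80.2 against 60.96 to 61.48) and the summed complex I accessory subunits (3862.4 against 2550.8 to 2758.2). Among the untreated controls at 2 weeks animal 77 stood above the others for all members (5187.5 CPM against 4609.1 to 4619.1), the complex I accessory subunits (1327.9 against 1046.8 to 1066.9) and Sdhb (157.6 against 150.6 to 151.6). Sdhb was low in animal 69 of the untreated controls at P0 (215.5 CPM against 237.8 to 240.6). In the untreated controls at 6 weeks Cox6a2 was low in 1 animal (0.856 CPM against 1.877 to 2.024) and the complex I assembly factors were high in another (195.6 against 151.6 to 156.1). In the exposed controls Cox8a was high in animal 4 at E16 (103.9 CPM against 88.33 to 89.43), complex II in animal 3 at 2 weeks (518.8 against 492.9 to 497.3), and at 6 weeks both Ndufa4 (68.5 against 57.77 to 58.34) and the ratio of mitochondrial to nuclear genes (0.857 against 0.516 to 0.563) in animal 11.

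Knockout effects differed between ages or models by an interaction term (edgeR, Benjamini-Hochberg over all genes). The constitutive effect at 2 weeks exceeded that at P0 for 59 members, with the smallest adjusted p values for Cox5a (log2 difference 1.39), Atp5g3 (1.17), Atp5f1 (1.11), Atp5c1 (0.97) and Atp5b (1.15). From 2 to 6 weeks it differed for 58, led by Atp5g3 (-1.25), Cox5a (-1.46), Ndufa1 (-1.63), Ndufv2 (-1.20) and Cox7b (-1.47). The inducible effect differed between P0 and 2 weeks for 3, Ndufa10 (-0.52), Uqcrc2 (-0.54) and Cox6b2 (-2.67). Constitutive minus inducible effects differed for 23 members at P0, led by Ndufa9 (-0.99), Uqcrc2 (-0.65), Sdha (-0.70), Uqcrc1 (-0.77) and Ndufa10 (-0.70). They differed for 61 at 2 weeks, led by Atp5g3 (1.29), Atp5f1 (1.09), Ndufv2 (1.16), Ndufb8 (1.07) and Atp5c1 (0.96), and for 1 at 6 weeks, Cox6b2 (1.85).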

How the results depend on the processing

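No paired analysis was possible because the groups compared share fewer than 2 animal numbers, which name different animals. Over 3131 values of named members under alternatives 2752 kept direction and side of the threshold, 362 lost and 17 gained the call, and 0 reversed. The number of members called moved by over 1.5 times as follows, and the cause was not tested. On library totals alone it was 49 (constitutive P0), 2 (constitutive 6 weeks), 0 (exposed against untreated controls at P0), 2 (models compared at P0) and 25 (constitutive 2 weeks against P0). In 1 fit of all 14 groups it was 27 (constitutive P0), 2 (constitutive 6 weeks), 6 (E16), 0 (exposed against untreated at P0), 7 and 0 (models at P0 and 6 weeks) and 9 (inducible 2 weeks against P0). With DESeq2 it was 2 (constitutive 6 weeks), 10 (E16), 1 (inducible 2 weeks), 6 (untreated controls, 6 against 2 weeks), 13 (models at P0) and 15 (inducible 2 weeks against P0). With median-ratio scaling it was 9 (models at P0) and 33 (constitutive 2 weeks against P0). Without a filter it was 1 (inducible 2 weeks), 0 (exposed against untreated at P0) and 0 (models at 6 weeks). With the length trend taken out it was 6 and 5 (untreated and exposed controls, 6 against 2 weeks), 0 (exposed against untreated at P0), 36 (models at P0) and 11 (inducible 2 weeks against P0).

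Leaving out each library in turn gave 6 to 17 called members for the constitutive knockout at P0, 57 to 66 at 2 weeks and 1 to 2 at 6 weeks (2 without 1 of the controls). It gave 0 to 4 for the inducible knockout at E16, 1 to 26 at P0, 0 to 1 at 2 weeks and 0 at 6 weeks. For controls it gave 74 to 77 and 65 to 68 from P0 to 2 weeks, 2 to 4 from 2 to 6 weeks in either model, 0 from E16 to P0, and 0 to 1, 0 and 0 between exposed and untreated at P0, 2 and 6 weeks. Differences between models gave 6 to 26 at P0, 48 to 63 at 2 weeks and 0 to 1 at 6 weeks. Differences between ages gave 29 to 63 and 32 to 61 in the constitutive and 1 to 7 and 0 in the inducible model. With 2 constitutive knockouts at 2 weeks, each with neutrophil markers far above the controls, the precision there is set by few animals, and members under about 1 CPM are limited by depth.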
